A study of Mus musculus with 32 samples.

Results

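Hippocampal RNA of old mice lacking the inflammasome adaptor ASC was compared with that of old wild type mice, using 6 ASC -/- arrays and 5 wild type arrays out of 32 arrays in the series. The members were chosen by title (ASC -/-, old, replicates 1 to 6; wild type, old, replicates 1 to 5). Old wild type replicate 6 was left out because it carried striatal transcripts: its summed linear signal over the measured striatal markers was 74230, against 8102 to 8594 on the other 5 old wild type arrays and 8374 to 9395 on the 6 old ASC -/- arrays. All mice were on the C57BL/6J background and ate chow from weaning. The old wild type mice were 23 months old. The old ASC -/- mice were 23 months old by their titles, but the characteristics of 5 of the 6 give 21 months, so a difference in age of this size cannot be told apart from genotype. Replicate 1 is the old ASC -/- array given as 23 months by title and characteristics. CIAS -/- mice, used as a further reference, lack the sensor NLRP3 (CIAS is its older name). The labels give no allele, breeding or littermate information beyond the genotype. Young mice were 1 month old, and the fit also holds young CASP 11-/- mice (4 arrays), which lack caspase-11 and enter no tested comparison. Nothing in the labels ties each array to an animal of its own. The p-values therefore measure only the spread between arrays, part of which may be technical.

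ASC, encoded by Pycard, is a small adaptor that links inflammasome sensors such as NLRP3 to caspase-1. Once assembled, the complex lets caspase-1 mature cytokines of the interleukin-1 family and open pores in the cell membrane. In the brain the pathway is best known from microglia, the resident macrophages, whose products act on astrocytes, oligodendrocytes and neurons.

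Each array detected between 13311 and 13815 of 25697 probes (detection p under 0.05), and the median signal lay between 58.9 and 69.6. A gene was called when its adjusted p was under 0.05 in a limma fit of 7 group means over 31 arrays, with Benjamini-Hochberg adjustment over 11156 features (10288 of them genes with a symbol). Levels below are normalized log2 signals of 1 probe per gene, and differences are old ASC -/- minus old wild type on that scale, with their standard error. Levels of different probes are not comparable. Hippocampal markers were present on all 11 arrays: the dentate gyrus list summed to a linear signal of 8709 to 10270, and the CA1 and CA3 list to 17910 to 20110. In bulk tissue, fewer cells of a type and less RNA per cell cannot be told apart. Old wild type replicate 4 had a low signal of the Y-linked gene Eif2s3y (4.43, against 9.07 to 9.56 on replicates 1, 2, 3 and 5 and 9.29 to 9.75 in old ASC -/-), so sex was not balanced between the groups.

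The targeted gene could not be checked on these arrays. The single Pycard probe was detected on 0 of 31 arrays, at 4.56 ± 0.048 (SD, n = 5) in old wild type and 4.64 ± 0.068 (SD, n = 6) in old ASC -/-. Both Nlrp3 probes were also detected on 0 of 31 arrays. Casp1, the protease that ASC activates, was detected on every array and stood at 8.37, 8.29, 8.52, 8.22 and 8.13 in old wild type. In old ASC -/- its lowest, median and highest values were 7.54, 8.27 and 8.46. The groups overlapped, and the difference of -0.13 ± 0.13 (SE) was not called (limma adjusted p = 0.621). Casp4, the murine caspase-11 gene, differed by 0.14 ± 0.08 (adjusted p = 0.317), also with overlapping groups. That probe does not register loss of the gene: its median was 5.48 in young CASP 11-/- and 5.46 in young wild type, and the other Casp4 probes were detected on 0 of 31 arrays. Of the 14 measured genes of the inflammasome and interleukin-1 list, 0 were called by limma (1 had an unadjusted p under 0.05), 8 stood above 0 and 6 below, and their median of 0.03 lay beside a median of 0.02 over all features. The smallest p of that list was that of Panx1, a channel that releases ATP (0.22, adjusted p = 0.142). Il1b, the cytokine matured by caspase-1, was not detected on any of the 6 old ASC -/- arrays and differed by -0.17 (adjusted p = 0.302).

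Across the transcriptome 432 of 11156 features were called (3.87%), 213 higher (1.91%) and 219 lower (1.96%) in old ASC -/-. Unadjusted p lay under 0.05 for 2285 features (20.5%). The changes were small: the median difference was 0.34 among features called higher and -0.44 among those called lower. A difference of at least 1 log2 unit, which is 2-fold, was found for 1 higher and 9 lower features. All 6 old ASC -/- arrays lay above all 5 controls for 107 of the 213 features called higher and below them for 102 of the 219 called lower. Over all features this held for 1.9% above and 1.65% below. Of all features 57.4% stood above 0, and the counts of list members below are to be read beside that share and the 3.87% called. A test against a 1.5-fold change (treat) called 1 gene, Gdpd3.

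Gdpd3 rose 7.27-fold in old ASC -/-. It encodes a glycerophosphodiester phosphodiesterase family member that releases lysophosphatidic acid from lysophospholipids. It lies on the same chromosome as Pycard, 42 measured genes away in the gene order of GRCm38.p6. Old wild type arrays read 5.25, 5.43, 5.05, 5.17 and 4.98, with detection on 4 of 5. Old ASC -/- arrays read 7.79 at the lowest, 7.98 in the median and 8.40 at the highest, so the groups stood far apart. The difference of 2.86 ± 0.39 (adjusted p = 0.000292) stayed called when any 1 of the 11 arrays was left out and under all 12 other planned settings that refit it.

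Gdpd3 was not high in old CIAS -/- (5.00 to 5.38), and the direct difference between the 2 old knockouts was 2.83 ± 0.38 (adjusted p = 0.00016). Among young arrays the level did not follow the labels. Young ASC -/- replicates 2 and 4 read 6.91 and 7.63, but replicate 1 read 5.10. Young wild type replicate 3 read 7.52 and young CIAS -/- replicate 4 read 7.47, while the other young wild type arrays lay between 4.87 and 5.16. The young comparison of ASC -/- with wild type therefore rests on arrays that go against their labels for this gene (0.91 ± 0.50, adjusted p = 0.868).

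**Figure D1:**
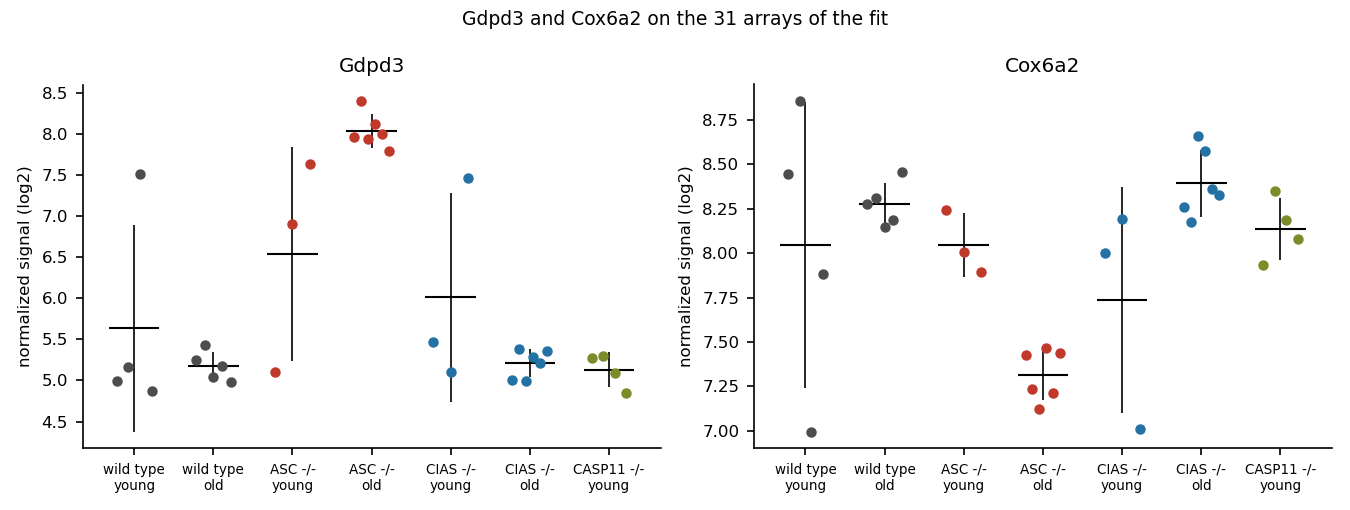
Normalized log2 signal (y axis) of Gdpd3 (left) and Cox6a2 (right) on each of the 31 arrays in the fit, by group (x axis); each point is 1 array, the horizontal line the group mean and the vertical line 1 SD. All 6 old ASC -/- arrays lie at 7.79 or above for Gdpd3 and at 7.46 or below for Cox6a2, and 1 young wild type array (7.52 and 7.00) and 1 young CIAS -/- array (7.47 and 7.01) lie near that pattern.

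Cox6a2, the muscle-type isoform of a cytochrome c oxidase subunit, is the measured gene next to Pycard. It fell by 0.96 ± 0.21 on the log2 scale (1.94-fold, adjusted p = 0.0108). Old wild type arrays read 8.28, 8.31, 8.15, 8.19 and 8.46, and old ASC -/- arrays read 7.13 at the lowest, 7.33 in the median and 7.46 at the highest. The groups did not overlap, and the call held when any 1 of the 11 arrays was left out. Old CIAS -/- arrays lay between 8.18 and 8.66, and the difference between the old knockouts was -1.08 ± 0.20 (adjusted p = 0.016). The low level was also seen on young wild type replicate 3 (7.00) and young CIAS -/- replicate 4 (7.01), the same arrays that were high for Gdpd3, while the 3 young ASC -/- arrays read 8.25, 8.01 and 7.89.

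Of the 50 measured genes on each side of Pycard, 6 of 100 were called (6%), beside 3.87% of all features and 4.01% of the measured genes of that chromosome. Within 20 measured genes on each side the count was 4 of 40. Zfp553, a zinc finger gene, was lower by 0.45 ± 0.09 (adjusted p = 0.00771), with old wild type at 6.59, 6.90, 6.58, 6.58 and 6.44 and old ASC -/- at no more than 6.31. Its second probe differed by -0.47. The low level of Zfp553 was not particular to old ASC -/-. Its median was 6.17 there, 6.08 in old CIAS -/- and 5.91 in young CASP 11-/-. Bag3, a co-chaperone of the Hsp70 family, Inpp5f, an inositol phosphatase, and Mcmbp, a partner of the replicative helicase, lie 5, 6 and 7 measured genes after Pycard. They were higher by 0.36 ± 0.09, 0.32 ± 0.08 and 0.33 ± 0.06 (adjusted p = 0.0284, 0.0177 and 0.00313), with no overlap between the groups. The other kept probes of Inpp5f differed by -0.29 and -0.26 and that of Mcmbp by -0.21, all opposite to the probe tested. Against old CIAS -/-, 2 of the 100 genes were called, Gdpd3 and Cox6a2. Zfp553, Bag3, Inpp5f and Mcmbp differed from old CIAS -/- by 0.10, 0.35, 0.28 and 0.16. None of these was called (limma adjusted p = 0.774, 0.173, 0.173 and 0.455). Bag3 lost its call without wild type replicate 1, 2 or 3 or without ASC -/- replicate 4 or 5 (adjusted p up to 0.086), and Inpp5f without ASC -/- replicate 5 (0.0521).

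The promoters of Gdpd3, which showed the largest difference, and of C1qb and C1qc, which with C1qa are the C1q genes described below, are shown to give their sequence context. Of 5 genes looked up (Gdpd3, C1qa, C1qb, C1qc and Cox6a2), 3 were in the RefSeq promoter table of GRCm38.p6. Each line gives the 250 bases before the annotated start, on the strand of the gene. Gdpd3 is at chr7:126766164-126766413 (plus strand), C1qb at chr4:136886201-136886450 and C1qc at chr4:136892915-136893164 (both minus strand). Capitals mark matches, on either strand, to any of 4 motifs. One is TATAAA, the core promoter element near many starts. Another is CCAAT, bound by nuclear factor Y. The others are GGGCGG, bound by Sp1, and the core GAGGAA, bound by PU.1, a factor of macrophages and microglia.
Gdpd3: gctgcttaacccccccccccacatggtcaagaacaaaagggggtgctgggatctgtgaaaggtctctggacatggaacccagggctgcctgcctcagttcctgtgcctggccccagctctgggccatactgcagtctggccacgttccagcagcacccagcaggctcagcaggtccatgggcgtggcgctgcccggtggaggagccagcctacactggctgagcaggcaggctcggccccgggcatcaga
C1qb: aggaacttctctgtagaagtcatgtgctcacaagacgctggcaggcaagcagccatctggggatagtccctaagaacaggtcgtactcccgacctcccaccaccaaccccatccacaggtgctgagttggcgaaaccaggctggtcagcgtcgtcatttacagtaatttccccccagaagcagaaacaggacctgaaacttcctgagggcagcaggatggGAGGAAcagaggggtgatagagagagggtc
C1qc: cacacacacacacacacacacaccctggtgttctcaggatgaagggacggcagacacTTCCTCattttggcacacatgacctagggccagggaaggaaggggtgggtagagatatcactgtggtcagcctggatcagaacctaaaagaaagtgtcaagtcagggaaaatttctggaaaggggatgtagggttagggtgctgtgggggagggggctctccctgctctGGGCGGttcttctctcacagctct
The C1qb and C1qc windows each hold 1 match to GAGGAA, which 23.3% of the 32851 promoter windows of the table also hold, and C1qc holds 1 match to GGGCGG, found in 32.7%. The Gdpd3 window holds 0 matches to the 4 motifs; TATAAA occurs in 12.4% and CCAAT in 33.8% of windows. The 4 motifs do not overlap each other in these windows.

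Of 9 measured complement genes 3 were called, all lower, beside 1.96% of all features, and the list's median was -0.24 beside 0.02 over all features. The called genes were the 3 chains of C1q, the molecule that starts the classical pathway and is made in the brain by microglia. C1qc read 8.89, 8.97, 9.04, 9.38 and 9.08 in old wild type and 8.00, 8.69 and 8.86 (lowest, median, highest) in old ASC -/-. These groups did not overlap, and C1qc fell by 0.52 ± 0.11 on the log2 scale (adjusted p = 0.0108). C1qb read 9.09, 9.47, 9.18, 9.66 and 9.49 against 8.46, 9.05 and 9.26, overlapping at its ends, with a fall of 0.45 ± 0.12 (adjusted p = 0.0298). C1qa read 6.94, 7.02, 6.98, 7.37 and 7.00 against 6.47, 6.78 and 6.95, and fell by 0.30 ± 0.08 (adjusted p = 0.0396). In all 3 genes old ASC -/- replicate 4 was the lowest array, and old wild type replicate 4, the array with low Eif2s3y, was the highest. Old ASC -/- replicate 1, given as 23 months by title and characteristics, was the highest knockout array for C1qa, C1qb and C1qc (6.95, 9.26 and 8.86). It was also the highest for Trem2, Fcer1g, Gfap and Mog, described below, but the lowest for Cx3cr1 and Aqp4. The part of age in these differences was not tested. The part of sex in the C1q differences was not tested beyond the fit with a covariate for sex-linked transcripts, in which C1qa lost its call. C4b, a component downstream of C1q named here after its value was seen, differed by -0.52 but was not called (adjusted p = 0.0573). C1qc kept its call when any 1 of the 11 arrays was left out. C1qb lost it without wild type replicate 2, 4 or 5 or ASC -/- replicate 4 or 5 (adjusted p up to 0.0911), and C1qa without wild type replicate 2, 3 or 4 or ASC -/- replicate 4, 5 or 6 (up to 0.121).

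Of 22 measured homeostatic microglia markers, 3 were called lower and 1 higher, with a median of -0.04. Cx3cr1, the fractalkine receptor, fell by 0.60 ± 0.14 on the log2 scale (1.51-fold, adjusted p = 0.0163). It read 9.64, 9.73, 9.52, 9.76 and 9.43 in old wild type, above every old ASC -/- array (8.85, 9.02 and 9.18). Its median was lower still in old CIAS -/- (8.69) and in young CASP 11-/- (8.17). The young ASC -/- arrays (8.72 to 9.07) also lay below every young wild type array (lowest 9.19), without a call. Trem2, a lipid receptor, fell by 0.34 ± 0.08 (adjusted p = 0.0199), and Fcer1g, a signalling chain of Fc receptors, by 0.30 ± 0.08 (adjusted p = 0.0281). Siglech, a sialic acid binding receptor named here after its value was seen, was higher by 0.33 (adjusted p = 0.042). Of the 22 markers 14 stood below 0, and an unadjusted p under 0.05 was found for 7 lower and 2 higher members. P2ry12 (0.27, adjusted p = 0.209), Tmem119 (0.08, adjusted p = 0.596) and Aif1 (-0.08, adjusted p = 0.63), named after their values were seen, were not called. The summed linear signal of the whole list lay between 8557 and 10080 in old wild type and between 8345 and 9099 in old ASC -/-. The call of Cx3cr1 held when any 1 array was left out. Trem2 lost its call without wild type replicate 4 (adjusted p = 0.0612), and Fcer1g without wild type replicate 2 or 4 or ASC -/- replicate 5 (up to 0.0868).

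Among the lists of immune response, few members passed. Of 23 measured genes of activated microglia, 24 interferon-stimulated genes and 15 genes of the MHC list, 0 were called in each list by limma. At an unadjusted p under 0.05 stood 2 lower genes of activated microglia and 5 lower interferon-stimulated genes. So did 2 higher members of the MHC list, among them the proteasome gene Psmb10. The list medians were -0.11, -0.16 and -0.07, and 21 of the 24 interferon-stimulated genes stood below 0. Ifitm3, an antiviral membrane protein, differed by -0.52 ± 0.16 (adjusted p = 0.0635), and Irf9, a subunit of the interferon-activated transcription factor, by -0.21 ± 0.07 (adjusted p = 0.0784) with no overlap between the groups. Of 21 measured NF-kB and cytokine genes 1 was called, the chemokine gene Ccl4, which was lower by 0.80 ± 0.20 (adjusted p = 0.0244). Its old wild type values were 5.12, 5.75, 5.28, 7.05 and 5.75, and its old ASC -/- values 4.71, 4.97 and 5.33. Wild type replicate 4 stood above all others, but the call held without it.

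Gfap, the intermediate filament of reactive astrocytes, was lower by 0.62 ± 0.17 (1.54-fold, adjusted p = 0.0345). Its values were 7.04, 7.19, 7.15, 7.77 and 7.52 in old wild type and 5.83, 6.92 and 7.12 in old ASC -/-, with ASC -/- replicate 4 the lowest. Of 21 measured reactive astrocyte genes 1 was lower and 1 higher, the latter Fkbp5, a glucocorticoid-induced chaperone of the steroid receptor (0.37 ± 0.11, adjusted p = 0.0465). Of 17 measured homeostatic astrocyte genes only Aqp4, the water channel of astrocyte endfeet, was called. It read 10.40, 10.28, 10.33, 10.38 and 10.11 in old wild type and 9.36, 9.75 and 9.86 in old ASC -/-, a fall of 0.64 ± 0.16 on the log2 scale (adjusted p = 0.027) with no overlap. The summed linear signal of that list was 39410 to 41050 in old wild type and 38700 to 40890 in old ASC -/-.

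Of 23 measured myelin and mature oligodendrocyte genes 2 were called lower and 0 higher, 21 stood below 0 and the median was -0.20. Mog, a surface protein of the outer myelin sheath, read 8.29, 8.73, 8.53, 8.65 and 8.86 in old wild type and 7.52, 8.10 and 8.28 in old ASC -/-, below every control. It was lower by 0.58 ± 0.16 (adjusted p = 0.0366), and its second probe differed by -0.57. Trf, the iron carrier transferrin made by oligodendrocytes, was lower by 0.56 ± 0.16 (adjusted p = 0.0462) and Mbp differed by -0.22 without a call (adjusted p = 0.247). The summed signal of the list was 38470 to 49650 in old wild type and 34850 to 42580 in old ASC -/-. Gfap lost its call without wild type replicate 4 or 5 or ASC -/- replicate 4 or 5 (adjusted p up to 0.101), Aqp4 without wild type replicate 1, 3 or 4 or ASC -/- replicate 1 or 5 (up to 0.0724), and Mog without wild type replicate 2, 3, 4 or 5 or ASC -/- replicate 4 or 5 (up to 0.106). Fkbp5 and Trf each kept it in only 2 of 11 such fits.

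**Figure D2:**
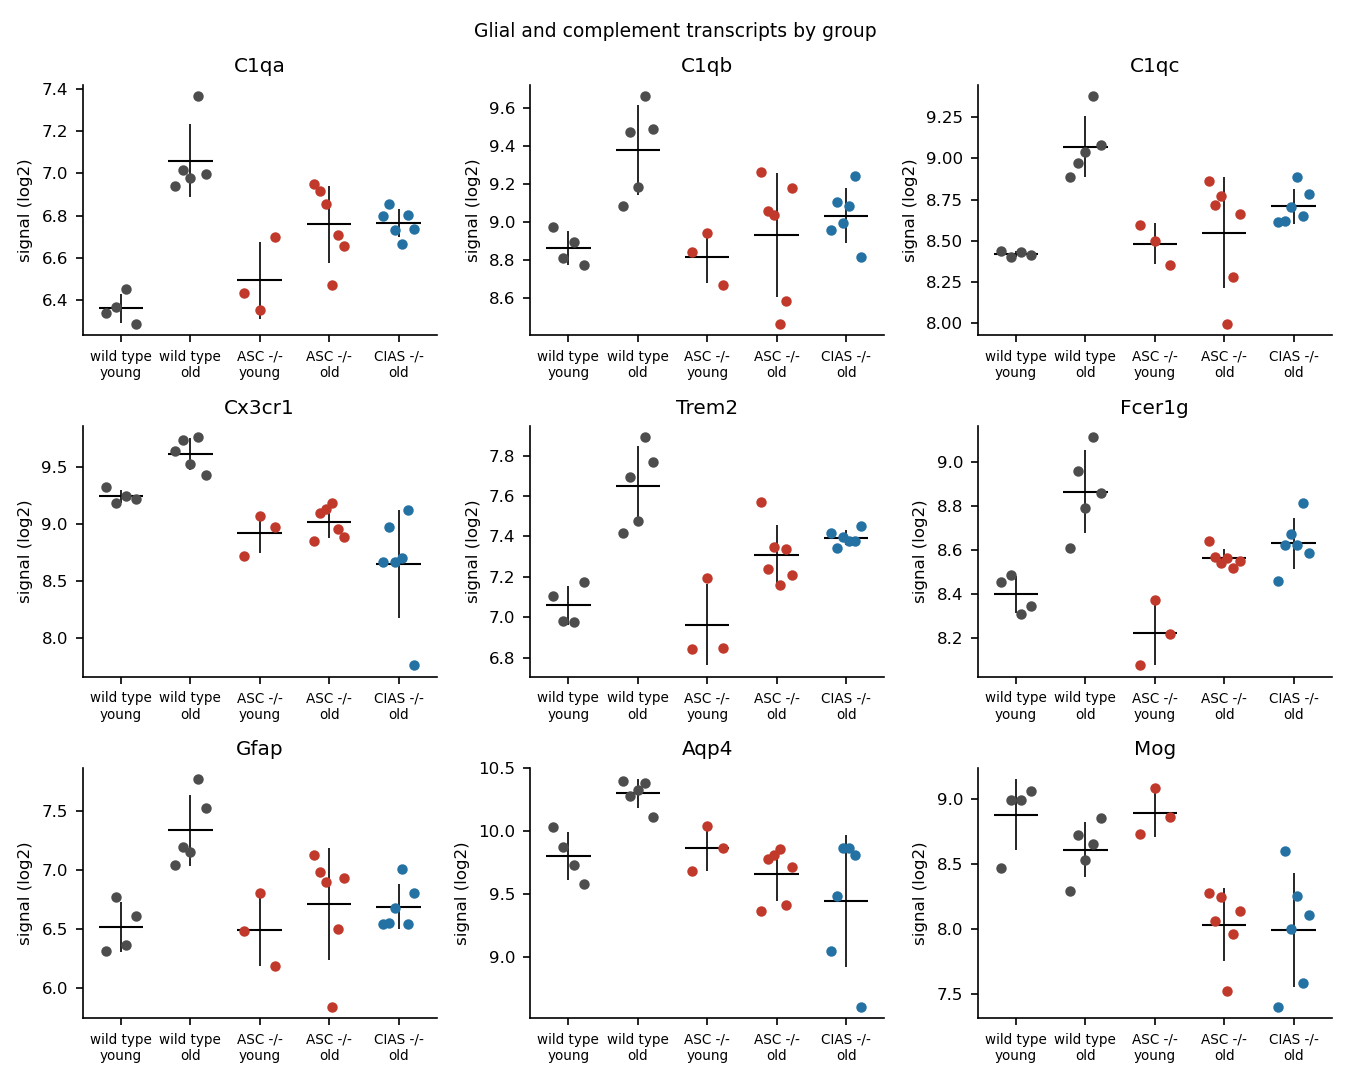
Normalized log2 signal (y axes, scaled per gene) of 9 complement, microglia, astrocyte and myelin genes in 5 groups (x axis); points are arrays, horizontal lines group means and vertical lines 1 SD. The old ASC -/- arrays lie below every old wild type array for C1qc, Cx3cr1, Aqp4 and Mog and overlap them for the other 5 genes.

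The old CIAS -/- arrays give a second reference for these genes, with the old ASC -/- arrays shared between the comparisons. Old CIAS -/- replicate 5 had high signals of both sex-linked transcripts Eif2s3y (9.91) and Xist (7.76). Xist lay between 4.90 and 5.22 on the other old CIAS -/- arrays. The reason for this was not tested. C1qa, C1qb and C1qc differed between old ASC -/- and old CIAS -/- by -0.01, -0.10 and -0.16 (adjusted p = 0.989, 0.822 and 0.687). Trem2, Gfap and Mog differed by -0.08, 0.03 and 0.04 (adjusted p = 0.791, 0.984 and 0.97), and Cx3cr1 by 0.37 (adjusted p = 0.458). In that comparison 6 features were called (0.0538%), Gdpd3 and Cox6a2 among them. By direction these were 4 higher (0.0359%) and 2 lower (0.0179%), and 8.81% of features had an unadjusted p under 0.05. The others were Khdrbs3, an RNA-binding splicing factor, lower in old ASC -/- by 1.02 (adjusted p = 9.67e-05), and Zbtb7a, a transcriptional repressor, Grm8, a glutamate receptor, and Polr3k, an RNA polymerase subunit, higher by 1.75, 0.56 and 0.46 (adjusted p = 0.00642, 0.000387 and 0.0238). Khdrbs3 stood at 7.70 to 8.01 in old ASC -/- and 7.68 to 7.88 in old wild type, and it was the old CIAS -/- arrays that were high (8.45 to 9.18). For Zbtb7a, Grm8 and Polr3k, old CIAS -/- was the lowest of the old groups, with medians of 6.19, 6.01 and 7.81. The medians were 7.87, 6.55 and 8.23 in old ASC -/- and 8.69, 6.48 and 8.10 in old wild type. Over the features called lower against old wild type, the median difference from old CIAS -/- was 0.08, and over those called higher it was 0.05.

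Neuronal transcripts moved in both directions. Of 25 measured synapse and plasticity genes 2 were called lower and 2 higher, with a median of -0.05. Syt1, the calcium sensor of transmitter release, read 12.76, 12.63, 12.62, 12.59 and 12.42 in old wild type and 11.73, 12.20 and 12.32 in old ASC -/-, a fall of 0.46 ± 0.08 on the log2 scale (adjusted p = 0.00281) without overlap. Syn2, a synaptic vesicle phosphoprotein, was lower by 0.60 ± 0.15 (adjusted p = 0.0281). Nlgn1, a postsynaptic adhesion protein, was higher by 0.48 ± 0.13 (adjusted p = 0.0336), and Vamp2, a vesicle fusion protein named after its value was seen, by 0.20 (adjusted p = 0.0424). Of 18 interneuron genes 1 was called, Cnr1, the cannabinoid receptor of basket cells, which fell by 0.47 ± 0.09 (adjusted p = 0.00281). Its old wild type values of 6.46, 6.64, 6.65, 6.74 and 6.46 lay above all old ASC -/- values (5.95, 6.15 and 6.26). Syt1, Syn2 and Cnr1 had lower medians in old CIAS -/- (12.01, 11.5 and 5.91) and young CASP 11-/- (11.82, 11.09 and 5.88) than in old ASC -/-. Rgs14, a CA2 marker of the CA1 and CA3 field list, was higher by 0.41 (adjusted p = 0.0298), and Rfx3, of the dentate gyrus list, was lower by 0.44 (adjusted p = 0.0197). Syt1 and Cnr1 kept their calls when any 1 array was left out. Syn2 and Nlgn1 each lost theirs without any one of wild type replicates 1 to 4 (adjusted p up to 0.0749 and 0.0983) and without ASC -/- replicate 5, Syn2 also without replicate 1 and Nlgn1 also without replicate 4. Rgs14 lost its call without wild type replicate 1, 3 or 5 or ASC -/- replicate 4 or 5 (up to 0.0879), and Rfx3 without wild type replicate 1 (0.0709).

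Among the genes called higher, Frzb, a secreted Wnt antagonist, read 6.11, 6.52, 6.23, 6.37 and 6.19 in old wild type and 6.54, 6.81 and 7.09 in old ASC -/-. The groups came close but did not overlap, and the difference was 0.56 ± 0.10 (1.47-fold, adjusted p = 0.00337). Idi1, an isomerase of the cholesterol pathway, was higher by 0.64 ± 0.14 (adjusted p = 0.0129), the only called gene among 27 of that pathway, whose median was 0.01. B4galt4, a galactosyltransferase, Nostrin, which guides endothelial nitric oxide synthase, and Impa1, an inositol monophosphatase, were higher by 0.60, 0.66 and 0.53 (adjusted p = 0.0108, 0.0157 and 0.0183). Cenpa, the centromeric histone variant, was the only called gene of 19 proliferation genes (0.39 ± 0.09, adjusted p = 0.0149), of which 15 stood above 0 (beside 57.4% of all features) with a median of 0.10. The high levels were not particular to old ASC -/-. Median levels of Frzb, Idi1, B4galt4, Nostrin, Impa1 and Cenpa were 6.92, 6.582, 6.52, 6.379, 6.755 and 7.325 in old CIAS -/-. In old ASC -/- the medians were 6.81, 6.515, 6.412, 6.076, 6.732 and 7.344. Frzb, Idi1, B4galt4 and Cenpa kept their calls when any 1 array was left out. Nostrin lost its call without wild type replicate 1 or ASC -/- replicate 5 (up to 0.0552), and Impa1 without ASC -/- replicate 5 (0.0508).

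Chaperone genes held 2 called members of 29, both higher, beside 1.91% of all features called higher, with a list median of 0.10. Besides Bag3 this was Hspa5, the chaperone BiP of the endoplasmic reticulum, at 5.61, 6.43, 6.29, 6.35 and 6.56 in old wild type and 6.42, 6.69 and 7.21 in old ASC -/-. The groups overlapped, and the difference of 0.52 ± 0.15 (adjusted p = 0.0469) was kept in only 4 of 11 fits with 1 array left out. Hsp90aa1, a cytosolic chaperone, differed by 0.53 ± 0.16 without a call (adjusted p = 0.0563). Of 37 oxidative phosphorylation genes 29 stood above 0 (57.4% of all features did), with a median of 0.07. Only 1 was called, beside 3.87% of all features: Ndufb2, a subunit of the first respiratory complex (0.42 ± 0.11, adjusted p = 0.0287), which lost its call without wild type replicate 1, 2 or 5 or ASC -/- replicate 4 or 5 (up to 0.0944). Of 19 clock genes 1 was called, the repressor gene Ciart (0.39 ± 0.09, adjusted p = 0.019), which lost its call without wild type replicate 4 (0.0579). Of 32 ribosomal protein genes 0 were called by limma (3 had an unadjusted p under 0.05) and the median was 0.02.

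**Figure D3:**
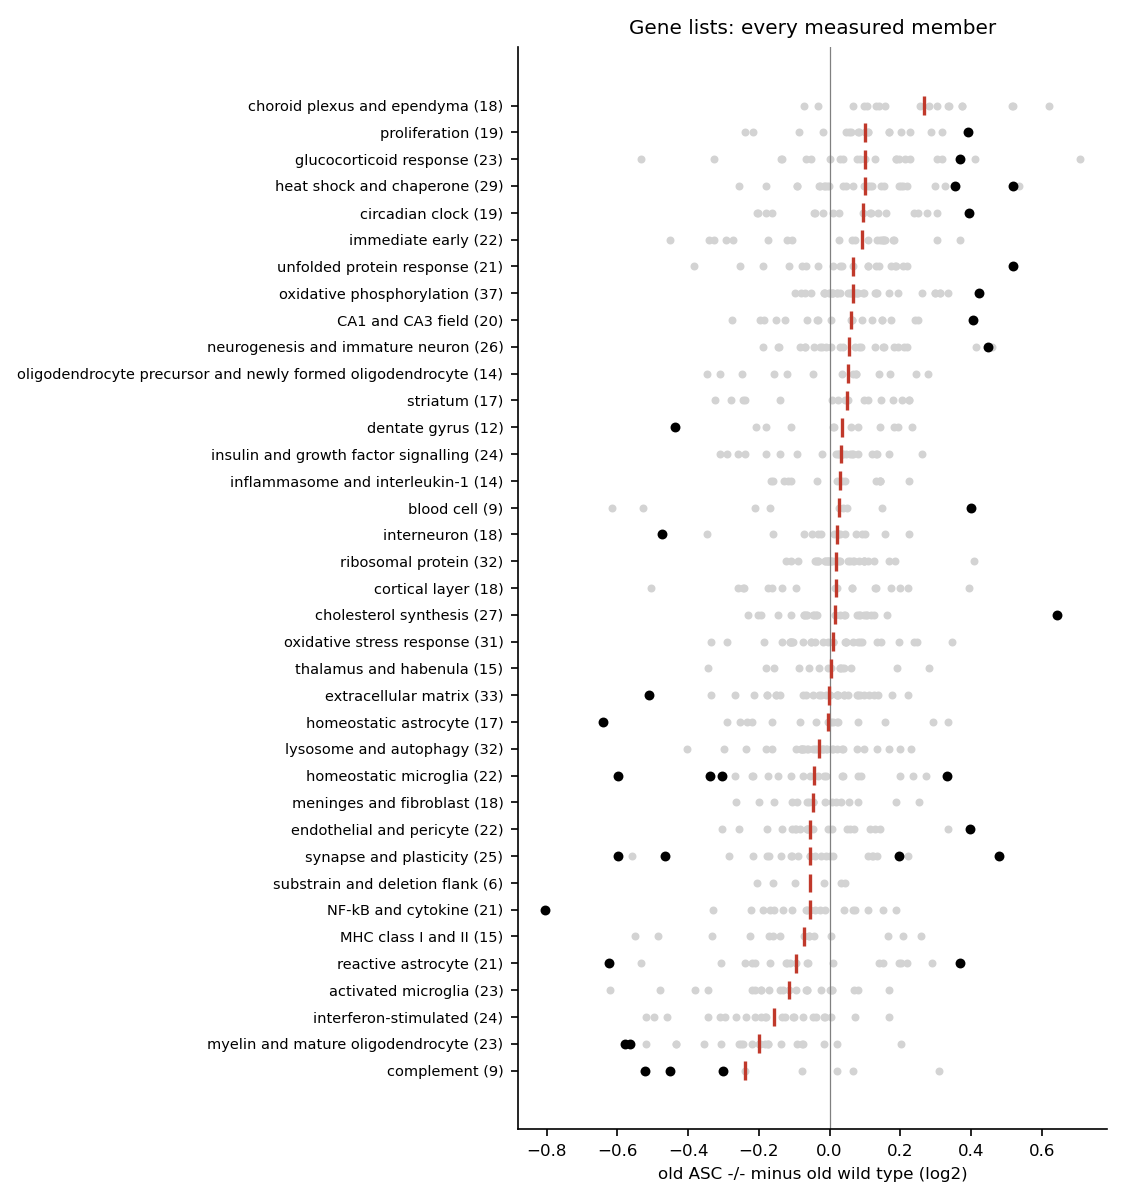
Difference between old ASC -/- and old wild type (x axis, log2) of every measured member of the 37 gene lists (y axis, number of measured members in parentheses), ordered by median; black points are called genes, grey points the others and red bars the list medians. Complement (-0.24), myelin (-0.20) and interferon-stimulated genes (-0.16) have the lowest medians, and choroid plexus genes the highest (0.27) with 0 called.

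Choroid plexus transcripts varied widely between arrays of the same group. The summed signal of 18 measured markers ran from 7154 to 27980 in old wild type and from 4811 to 30020 in old ASC -/-. Clic6, a chloride channel protein of that epithelium, read 8.60, 7.91, 9.94, 7.99 and 10.71 in old wild type and 7.75, 9.89 and 11.07 in old ASC -/-, and 0 genes of the list were called by limma (1 had an unadjusted p under 0.05). Against wild type replicate 5 alone the list's median was -0.76. Meningeal markers ran from 6487 to 12070 and from 6591 to 13570. The part of these tissues in the other results was not tested.

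Of the 9 features lower by at least 1 log2 unit, 6 have symbols: Kcna1, a voltage-gated potassium channel subunit, Slc24a2, a sodium-calcium exchanger, Cpeb3, a regulator of translation at synapses, Wdfy3, a scaffold of selective autophagy, Ddx6, an RNA helicase of processing bodies, and Peg3, an imprinted zinc finger gene. Kcna1 read 8.58, 8.06, 8.21, 8.33 and 7.19 in old wild type and 6.33, 6.96 and 7.22 in old ASC -/-. The first 4 controls were high, and replicate 5 lay within the range of the knockout. The difference was -1.19 ± 0.22 (adjusted p = 0.00334), but it was -1.41 against replicates 1 to 4 and -0.30 against replicate 5. The low level was not particular to old ASC -/-: the Kcna1 median was 6.02 in old CIAS -/- and 5.48 in young CASP 11-/-. Slc24a2, Cpeb3, Wdfy3, Ddx6 and Peg3 likewise had lower medians in old CIAS -/- than in old ASC -/-, and the lowest in young CASP 11-/-. Wdfy3 read 6.70, 6.66, 6.67, 6.58 and 5.80 in old wild type and 4.93, 5.35 and 5.79 in old ASC -/- (-1.08 ± 0.16, adjusted p = 0.000382). Its replicate 5 was the lowest control and lay just above the knockout's highest array. A second probe of Wdfy3 differed by only -0.23. Slc24a2 read 7.38, 6.99, 6.92, 6.69 and 5.67 against 4.83, 5.78 and 6.09 (-1.12 ± 0.22, adjusted p = 0.00665), and its difference from replicate 5 alone was -0.06. Ddx6 (-1.05, adjusted p = 0.027) lost its call without any one of wild type replicates 1 to 4 or without ASC -/- replicate 1 or 5 (up to 0.0722), and Peg3 (-1.01, adjusted p = 0.027) without wild type replicate 1, 3 or 4 or ASC -/- replicate 1 or 5 (up to 0.0765).

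Old wild type replicate 5 was the lowest of the 5 controls for 141 of the 219 features called lower (64.4%), against 23.1% of all features. It lay inside the range of old ASC -/- for 89 of them (40.6%), for 11.7% of the features called higher and for 62.8% of all features. The median of the features called lower was -0.48 against replicates 1 to 4 and -0.24 against replicate 5, and for those called higher it was 0.33 and 0.35. Against replicate 5 alone, 207 of the 219 lower and 213 of the 213 higher features kept the direction of their call. This is a description, since the same arrays chose the features. Some genes did not show the gap: C1qc differed by -0.52 and -0.53, Mog by -0.52 and -0.82 and Gfap by -0.58 and -0.81 from replicates 1 to 4 and from replicate 5. Gdpd3 (2.81 and 3.05) and Cox6a2 (-0.91 and -1.14) did not either. Cx3cr1 (-0.65 and -0.41), Aqp4 (-0.69 and -0.45) and Syt1 (-0.51 and -0.29) differed less from replicate 5, and Syn2 (-0.70 and -0.17) and Rfx3 (-0.53 and -0.07) less still.

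**Figure D4:**
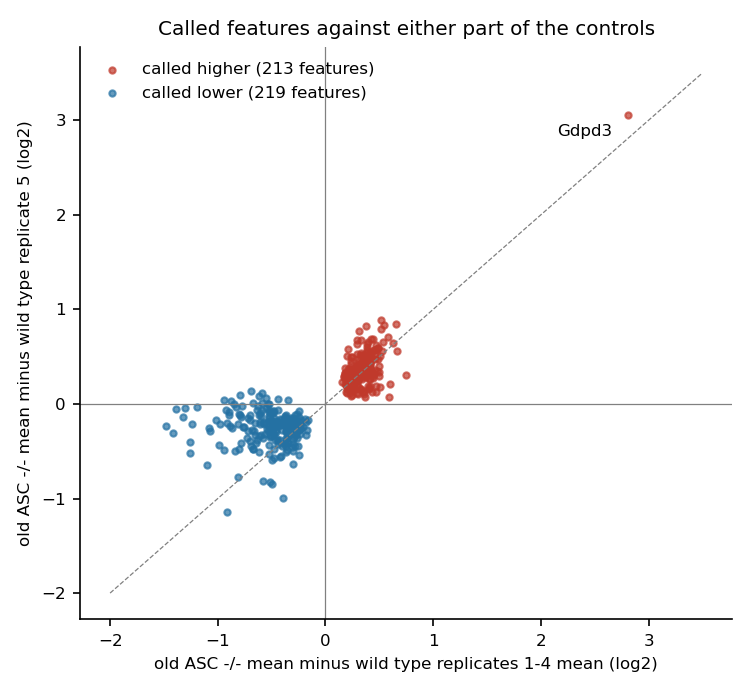
Each called feature's difference between the mean of old ASC -/- and the mean of old wild type replicates 1 to 4 (x axis, log2) or replicate 5 (y axis, log2); the dashed line marks equality. Features called lower have a median of -0.24 on the y axis and -0.48 on the x axis, and Gdpd3 stands alone at the upper right.

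In the column headers of the signal table, old wild type replicates 1 to 4 carry array numbers 5 to 8, replicate 5 the number 9 and old ASC -/- replicates 1 to 6 the numbers 15 to 20. No source says what the number stands for. With array numbers in runs of 8 as a block, a setting chosen after seeing the data, 1 feature was called and it was not among the 432. That fit rests on 1 old wild type and 2 old ASC -/- arrays of the same run, and the median standard error of the called genes rose from 0.09 to 0.19. Of the 432, 209 of 213 higher and 212 of 219 lower features kept their direction in it, with medians of 0.29 and -0.27. Gdpd3 was at 3.20 and Cox6a2 at -1.13 there (adjusted p = 0.551 and 0.783). With the runs as a random block (consensus correlation -0.05), 911 features were called, including all 432. Most arrays of the groups lie in different runs (4 old wild type in run 1, 4 old ASC -/- in run 3). The random block therefore cannot tell array number from genotype, and its higher count is no check on the calls. Against replicate 5 alone, also chosen after seeing the data, 4 features were called, of which 1 was among the 432 and which rest on a single control assumed to vary like the other groups. The highest array numbers belong to old CIAS -/- (25 to 30) and young CASP 11-/- (31 to 34). For the features called lower, their mean deviations from the 31-array mean were -0.47 to -0.01 and -0.29 to -0.26. Old ASC -/- arrays lay between -0.22 and 0.02, and the other young arrays between -0.04 and 0.15. Among these, young CIAS -/- arrays carry numbers 21, 22 and 24, above those of old ASC -/-, and lay between -0.04 and 0.05. The part of array number in the differences was not tested apart from these fits.

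**Figure D5:**
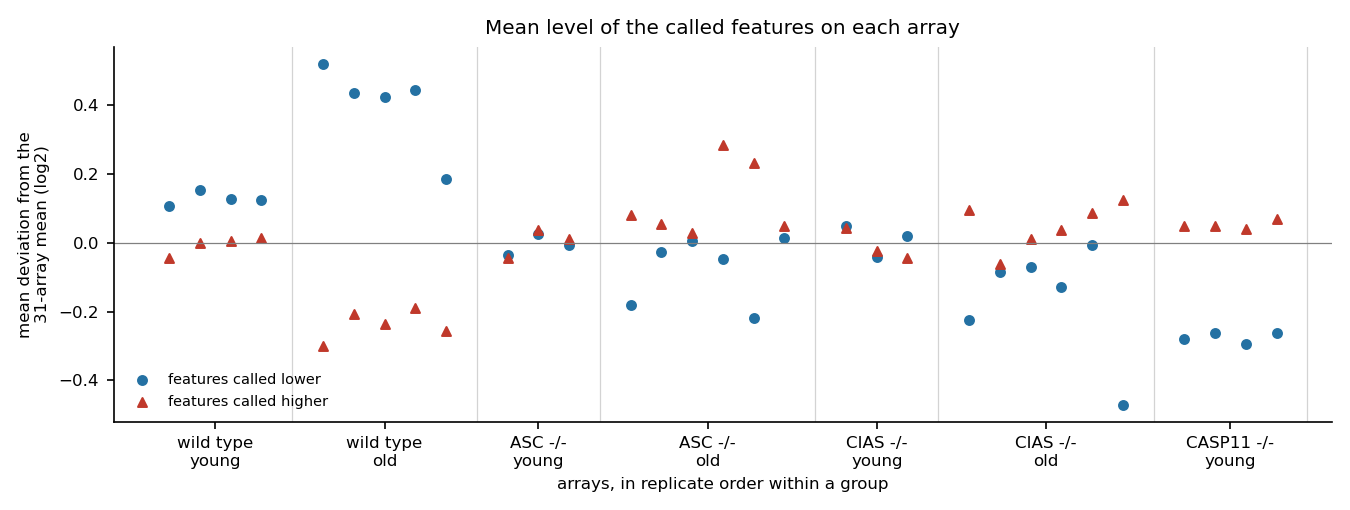
Mean deviation from the mean of the 31 arrays (y axis, log2) of the 219 features called lower (blue circles) and the 213 called higher (red triangles) on each array (x axis, by group). Old wild type replicates 1 to 4 lie between 0.43 and 0.52 for the features called lower and replicate 5 at 0.19. The young CASP 11-/- arrays lie between -0.29 and -0.26 for them. These features were chosen on the old wild type and old ASC -/- arrays, so the gap between those groups is no test.

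The number of calls also rested on single arrays. It fell to 138 without old ASC -/- replicate 5, to 193 without old wild type replicate 1, to 212 without replicate 3, to 234 without ASC -/- replicate 4, to 247 without wild type replicate 4 and to 272 without ASC -/- replicate 1. With a covariate for sex-linked transcripts 340 features were called, 324 of them among the 432. Replicates 4 and 5 of old ASC -/- had the lowest median correlation with their own group (0.990 and 0.992 across genes, which are not independent replicates), and 87 features were called without both. Further probes of the genes with the largest falls were mixed. The other probes of Slc7a14, a transporter family gene of lysosomes, differed by -1.13 and -1.05 (the tested probe, at -0.92, lost its call without any one of wild type replicates 1 to 4 or without ASC -/- replicate 1 or 5, up to 0.0912), those of Ddx6 by -0.86 and -1.18 and that of Bmpr2, a bone morphogenetic protein receptor, by -0.73. Further probes of Nsd1, a histone methyltransferase, and Zmiz1, a transcriptional coregulator, differed by 0.06 each, unlike the probes tested (-0.96 and -0.88). Mef2a, a transcription factor gene tested at -0.85, had further probes at -0.62 and 0.14, and Tmem63b, a mechanosensitive channel gene tested at -0.77, had 1 at 0.03.

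In young mice the same genotypes differed in 4 features (0.0359%), with 3 ASC -/- and 4 wild type arrays, and 5.94% of features had an unadjusted p under 0.05. Eif2s3y was low on young wild type replicates 3 and 4 (4.41 and 4.66). It was also low on young ASC -/- replicates 1 and 4 (4.47 and 4.44), so sex was not balanced here either. Hnrnpl, an RNA-binding protein gene, Zdhhc21, a palmitoyltransferase gene, and 5730409E04Rik were higher by 1.05, 0.83 and 0.64 (adjusted p = 0.0488, 0.0488 and 0.00971), and Chic1, a gene for a palmitoylated protein, was lower by 0.68 (adjusted p = 0.0488). For the 3 higher genes young wild type had the lowest median of the 7 groups, and its arrays read at most 10.63, 9.17 and 6.58. Young CIAS -/- arrays read at least 11.00, 9.38 and 6.85, and old wild type arrays at least 11.11, 9.50 and 6.89. Young wild type was not alone in low readings. Old CIAS -/- arrays reached down to 10.35, 8.62 and 6.48, with medians of 10.51, 9.38 and 6.74. Chic1 was also lower in old ASC -/- (-0.50 ± 0.10, adjusted p = 0.00775), where its difference was -0.02 against wild type replicate 5 alone. The difference between the old and young contrasts was called for 1 feature (0.00896%), 5730409E04Rik, higher in young ASC -/- and at -0.14 in old (difference -0.78, adjusted p = 0.0218). It was not called for Gdpd3 (1.95 ± 0.63, adjusted p = 0.28), C1qc (-0.59 ± 0.18, adjusted p = 0.245) or Cx3cr1 (-0.28 ± 0.22, adjusted p = 0.677), so an age dependence of those differences was not shown. The young count fell to 1 without wild type replicate 1 or 3 and to 0 without wild type replicate 4 or ASC -/- replicate 2 or 4. The count for the difference between ages fell to 0 without young wild type replicate 4, any of the 3 young ASC -/- arrays, old wild type replicate 1, 2 or 5 or old ASC -/- replicate 1, and was 2 without old wild type replicate 4. By unadjusted p under 0.05 it held 10.5% of features. The count against old CIAS -/- rose to 10 without old ASC -/- replicate 5, and to 14 and 16 without CIAS -/- replicates 1 and 2. Leaving out both young wild type replicate 3 and young ASC -/- replicate 1, whose Gdpd3 levels go against their labels, gave 4 calls in young mice and 0 for the difference between ages.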

How the data were processed

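Total RNA from hippocampus was biotin-labelled and hybridised to Illumina bead arrays, 1 sample per array, per the labels. For 32 arrays, signal intensity on a linear scale and a detection p-value for each signal were deposited without normalization between arrays, per the file headers. The submitters' processing notes name GenomeStudio without a version. Normalized intensity was also deposited, by a method the sources used here do not state, and served as an alternative (values under 16 set to 16, then log2).

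Signals were processed with limma 3.58.1 in R 4.3.3: neqc (normexp background from detection p-values, offset 16, quantile normalization, log2) over 31 arrays, probes kept at detection p under 0.05 on at least 3 arrays (14709 probes), and the probe with the highest mean per gene. Of 25697 probes 23978 had 1 gene symbol, 1719 none and 0 several. Of these, 23962 matched the GRCm38.p6 gene table by gene number. A fit of 7 group means (24 residual and 4.62 prior degrees of freedom) gave all comparisons, 2-sided. The number of arrays sets the precision. Genes named in the text were Pycard, Nlrp3, Casp1 and Casp4, the 20 largest called differences in each direction, up to 3 members with the smallest p of each of 37 lists, the 5 largest in each direction of the other 3 comparisons, and called genes among 50 measured genes on each side of Pycard; other names are marked in the text. The members and lists were chosen with earlier results of these data known. No array repeated another (0 identical). Replicate numbers did not pair the samples: same-numbered old arrays correlated in their deviations at 0.02, -0.04, 0.14, 0.04 and 0.35. The fit was tested on simulated data. Alternatives covered normalization, offset, source of values, filter, arrays, weights, variance, sex-linked transcripts, replicate number, probes, threshold and leaving out each array.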

Additional observations from a re-analysis of the deposited data

Results flagged for a closer look

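In 31 of 314 groups of 5 or 6 arrays, 1 array stood apart from the rest by Dixon's test at the 95% level (log2 level of that array given). Chance alone flags about 1 in 20 independent groups of genes not chosen by their values. These genes were largely chosen on the same arrays and many flags fall on the same array, so no excess can be read from the count. In 12 cases it was a low value of old wild type replicate 5: ILMN_2704570 (7.5), Wdfy3 (5.802), ILMN_2869715 (7.756), Ddx6 (8.222), ILMN_1241551 (10.17), Peg3 (7.376), Nsd1 (6.339), Dbpht2 (5.724), Zmiz1 (7.826), Bach1 (5.983), Syn2 (11.81) and Atp6v1a (10.76). Replicate 5 also stood apart for Entpd4 (11.79).

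Old wild type replicate 1 stood apart for Hspa5 (5.613), Nkx2-2 (7.004), Rora (8.935), Hsp90aa1 (6.992), Vegfa (9.274) and Zdhhc21 (9.842). Replicate 2 stood apart for the neutrophil gene S100a8 (7.055) and replicate 4 for C1qa (7.366). Among old ASC -/- arrays, replicate 3 stood apart for Casp1 (7.545) and Rpl3 (13.21), and replicate 4 for Ralgapa1 (7.228), Bcl11b (11.63), Rps23 (5.819), Srebf1 (6.841) and Apoe (10.6). Replicate 5 stood apart for Foxp1 (6.743) and Dlx2 (5.571), and replicate 6 for Col6a1 (9.569).

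A change with age in the difference between ASC -/- and wild type was called for 5730409E04Rik, by -0.78 (limma interaction, adjusted p = 0.0218): it was 0.64 in young and -0.14 in old mice. Young wild type read 6.216 to 6.582, beside 7.006 to 7.121 in young ASC -/-, 6.735 to 7.082 in old ASC -/- and at least 6.89 in old wild type. This call was lost when any 1 of the arrays listed above for that comparison was left out.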

How the results depend on the processing

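Old ASC -/- against old wild type gave 311 to 593 called features under 11 of the planned settings that kept all 11 arrays, beside 432. The 593 are probes, since each of the 14709 kept probes was tested separately there. With 1 probe per gene the highest count was 549, with array weights. The count was 165 when only the 2 groups were fitted and 1 when at least a 1.5-fold change was required. Leaving out 1 array gave 138 to 526. Array weights moved the split to 220 higher and 329 lower. Among settings chosen after seeing the data, 4 were called without wild type replicates 1 to 4, 87 without ASC -/- replicates 4 and 5, 1 with runs of 8 array numbers as a fixed block and 911 with them as a random block. Of the 69 called genes among the 157 named, 30 stayed called whichever array was left out, and 21 of them also under every planned setting that refitted the gene at the same threshold; the 1.5-fold test left 1. The causes were not tested. With the replicate number as a block, 249 features were called (236 of them among the 432), with 2 in young mice, 0 for the difference between ages and 13 against old CIAS -/-. The difference of Khdrbs3 from old wild type, which was not called, turned to -0.011 there. The replicate numbers do not pair these samples. The young count was 1 with the deposited normalized values, 2 with sex-linked transcripts as a covariate and 0 to 4 with 1 array left out. The difference between ages gave 2 calls with 32 arrays, 0 to 2 with 1 array left out and 0 without young wild type replicate 3 and young ASC -/- replicate 1. The count against old CIAS -/- was 4 to 16 with 1 array left out.

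All gene values in this paragraph are old ASC -/- minus old wild type, also for Grm8 and Khdrbs3, which were called only against old CIAS -/-. Among the named genes, those whose difference from old wild type turned sign under a setting below were not called in it, apart from Hspa5 and Slc2a1. Over all called features more turned: 12 of the 219 lower against wild type replicate 5 alone, and 4 of the 213 higher and 7 of the 219 lower with the fixed block of array numbers. With 32 arrays, Casp1 was 0.15, Gng7 -0.15 and Tac1 -0.52. With array weights, Grm8 was -0.0052. With 1 array left out, Grm8 ran from -0.0024 to 0.086 and Khdrbs3 from -0.010 to 0.051. Against wild type replicate 5 alone, Casp1 was 0.047, Casp4 -0.023, Il1b 0.028, Rgs5 0.066, Kcne2 -0.89, Clic6 -1.16 and Grm8 -0.15. Without ASC -/- replicates 4 and 5, Clic6 was -0.026. With the fixed block of array numbers, Casp1 was 0.12, Casp4 -0.065, Hspa5 -0.059, Myd88 -0.0018, Il1b 0.081, Rela -0.031, Gpr17 -0.00057, Slc2a1 -0.049, Rgs5 0.040, Kcne2 -1.40, Clic6 -1.65, S100a8 0.25, Igfbp5 0.035, Pde10a 0.056, Rgs16 -0.018, Dusp1 0.10, Plin4 -0.21 and Grm8 -0.17. The signal over background limits Pycard, Nlrp3 and Il1b.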
